A study of Mus musculus with 6 samples.

Results

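Extracellular ATP and its breakdown products act on macrophages through surface receptors, and 10 genes of this system are described here out of 36333 in each table. They are the P2Y receptors P2ry2, P2ry6, P2ry12, P2ry13 and P2ry14, the ATP-gated channels P2rx4 and P2rx7, the adenosine receptor Adora2b, the ATP-degrading ectoenzyme Entpd1 (CD39) and the ATP release channel Panx1. They were taken by gene name and had been picked because their transcript levels differed in opposite directions between the groups. The differences of these 10 genes between the groups are therefore given as a description, without a test. All 10 were found in the tables, and all 10 averaged at least 1 TPM (transcripts per 1e+06, a level per length of gene) over the 6 libraries.

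The cells were bone marrow derived macrophages of C57BL/6 mice, grown in macrophage colony-stimulating factor (M-CSF) at 10 ng/mL for 7 days and replated at 250000 cells per well. One group of 3 libraries came from cells given 100 µM stearic acid, a saturated fatty acid, for 24 h. The other group of 3 libraries came from cells given an equal volume of ethanol vehicle for 24 h. Transcript levels were measured by sequencing of polyadenylated RNA, and the comparison asks which of them differ after stearic acid. The labels do not say whether the replicates came from separate animals or cultures, so the SDs and p-values cover the spread among the 6 libraries alone, which may be technical.

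ATP leaves cells through channels such as pannexin 1, or from damaged cells, and marks stress or injury to neighbouring cells. P2X receptors are cation channels that ATP opens, and P2X7 is the one through which high ATP drives potassium efflux and NLRP3 inflammasome activation in primed macrophages. P2Y receptors are coupled to G proteins. P2Y2 senses ATP and UTP and P2Y6 senses UDP, both mainly through Gq, whereas P2Y12 and P2Y13 sense ADP and P2Y14 senses UDP-sugars through Gi. CD39 cuts ATP and ADP to AMP, CD73 (Nt5e) turns AMP into adenosine, and the A2B receptor senses adenosine at high concentrations.

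The 10 genes lie on 6 chromosomes, and 7 of them sit beside another of the 10. P2ry14, P2ry13 and P2ry12 follow each other within 148.4 kb of chromosome 3, all on the minus strand and all inside the body of Med12l, which runs on the other strand. P2rx7 and P2rx4 are 15.2 kb apart on chromosome 5, and P2ry6 and P2ry2 are 21.1 kb apart on chromosome 7. RefSeq promoter windows, 250 bases before to 50 bases after the start farthest upstream (GRCm38.p6), were matched for 9 of the 10 genes. The windows of the 3 clustered genes, which were all lower with stearic acid, and of P2ry2 and Panx1, which were both higher, are shown because their base composition differs. They are chr3:59262936-59263235 for P2ry12, chr3:59210833-59211132 for P2ry13, chr3:59153443-59153742 for P2ry14, chr7:101012004-101012303 for P2ry2 and chr9:15045429-15045728 for Panx1. Each lies on the minus strand and is written 5′ to 3′ along its gene, with capitals marking CG pairs.
P2ry12: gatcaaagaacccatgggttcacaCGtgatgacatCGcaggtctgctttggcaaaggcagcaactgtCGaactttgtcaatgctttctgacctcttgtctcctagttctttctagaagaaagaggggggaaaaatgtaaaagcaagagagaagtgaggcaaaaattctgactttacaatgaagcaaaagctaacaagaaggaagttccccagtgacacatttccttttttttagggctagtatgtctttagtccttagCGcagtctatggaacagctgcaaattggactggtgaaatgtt
P2ry13: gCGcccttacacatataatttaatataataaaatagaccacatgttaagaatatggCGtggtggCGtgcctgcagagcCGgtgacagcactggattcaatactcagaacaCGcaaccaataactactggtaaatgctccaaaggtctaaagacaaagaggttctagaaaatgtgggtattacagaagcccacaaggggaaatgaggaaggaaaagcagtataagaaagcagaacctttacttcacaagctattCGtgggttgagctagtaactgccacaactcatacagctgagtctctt
P2ry14: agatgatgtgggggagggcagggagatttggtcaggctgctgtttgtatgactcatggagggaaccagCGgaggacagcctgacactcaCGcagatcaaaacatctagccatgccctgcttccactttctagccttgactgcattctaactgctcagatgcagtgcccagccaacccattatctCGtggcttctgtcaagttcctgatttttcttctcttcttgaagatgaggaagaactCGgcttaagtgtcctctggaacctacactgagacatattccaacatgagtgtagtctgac
P2ry2: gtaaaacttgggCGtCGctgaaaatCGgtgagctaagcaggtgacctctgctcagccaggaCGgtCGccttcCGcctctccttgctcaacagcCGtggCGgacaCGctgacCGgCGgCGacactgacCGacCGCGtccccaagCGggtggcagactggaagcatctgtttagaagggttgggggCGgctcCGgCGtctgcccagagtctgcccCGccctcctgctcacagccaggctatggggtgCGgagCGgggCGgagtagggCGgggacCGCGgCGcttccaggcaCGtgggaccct
Panx1: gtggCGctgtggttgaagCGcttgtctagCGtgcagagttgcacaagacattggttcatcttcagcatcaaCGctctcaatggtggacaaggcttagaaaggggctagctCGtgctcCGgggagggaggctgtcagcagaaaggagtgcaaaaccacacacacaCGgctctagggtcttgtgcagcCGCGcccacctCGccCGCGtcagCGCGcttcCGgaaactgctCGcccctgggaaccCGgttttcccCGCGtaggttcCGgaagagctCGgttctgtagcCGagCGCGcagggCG

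The windows of P2ry12, P2ry13 and P2ry14 held 4, 6 and 4 CG pairs, and those of P2ry2 and Panx1 held 28 and 25. The median over 27018 promoter windows of RefSeq genes was 7. The split does not follow the direction of the difference throughout, since Entpd1, with 23 CG pairs, was also lower with stearic acid. P2rx7, lower as well, had 8, P2rx4 had 18 and Adora2b 27. Motif letters were searched on both strands, and a match is only a match of letters. TGANTCA, bound by AP-1 factors and identical on both strands, occurred in the windows of P2ry14 (position -202 from the start) and P2rx7 (position -249), and in 7.9% of all windows. The antioxidant response element core TGANNNNGC occurred in those of P2ry12, P2rx4, P2rx7, Adora2b and Entpd1, and in 41.4% of all windows. Neither TGATGNAA, a core of the CHOP-ATF4 composite element (4.1% of all windows), nor GAGGAAGT, bound by PU.1 (3.3%), occurred in these 9 windows.

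Libraries held an estimated 58.1 to 81.0 M (M, 1e+06) reads or pairs of reads. This depth gives the 10 genes between 69.3 reads per kilobase (P2ry13, stearic acid replicate 2) and 5219 per kilobase (P2ry6, vehicle replicate 1). All 9 macrophage markers examined reached the filter of a mean of 1 TPM, 4 of them fell and 1 rose with stearic acid, and their summed level was 23443 to 29011 TPM with stearic acid and 32824 to 33711 TPM with vehicle. Lyz2, which made up most of that sum, was among those that fell. Of 9 platelet and megakaryocyte markers, relevant because platelets carry P2Y12, 6 stayed under 1 TPM in every library. Their summed level was 17.4 to 20.4 TPM with stearic acid and 15.8 to 18.1 TPM with vehicle, mostly Itgb3, which rose, and Treml1, which did not pass. Neutrophil and progenitor markers summed to 8.67 to 9.54 TPM with stearic acid and 5.19 to 7.49 TPM with vehicle, with 10 of 12 under 1 TPM throughout. Lymphoid markers summed to 1.69 to 2.05 TPM with stearic acid and 2.94 to 3.26 TPM with vehicle, with 8 of 9 under 1 TPM and 4 listed at 0. Dendritic cell markers summed to 2.73 to 3.58 TPM with stearic acid and 2.77 to 3.51 TPM with vehicle. Stromal markers summed to 1.96 to 4.32 TPM with stearic acid and 3.01 to 4.98 TPM with vehicle, and erythroid markers to 0.357 to 0.501 TPM with stearic acid and 0.233 to 0.493 TPM with vehicle. Mast cell markers, 5 of 8 listed at 0, summed to 1.07 to 1.40 TPM with stearic acid and 0.390 to 0.580 TPM with vehicle, mostly from Kit. The macrophage, neutrophil, lymphoid and mast cell sums did not overlap between the groups. Among neutrophil and lymphoid markers, S100a8 rose (limma adjusted p = 0.016) and Cd79b fell (limma adjusted p = 0.00555). The part of these differences in the results below was not tested.

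The Gi-coupled nucleotide receptors were lower with stearic acid. P2ry12 (NCBI gene 70839, chromosome 3, 59216271 to 59262985, GRCm38.p6), the ADP receptor that directs process movement in microglia and platelet aggregation, was at 8.76, 3.89 and 6.12 TPM in the 3 stearic acid libraries and at 15.3, 16.6 and 17.0 TPM in the 3 vehicle libraries. All 3 stearic acid libraries lay below all 3 vehicle libraries, and replicate 2 was the lowest. The means were 6.26 ± 2.44 TPM and 16.3 ± 0.899 TPM (SD, n = 3 each), so that stearic acid cells held 38.4% of the vehicle level (log2 difference -1.31, SE 0.29, on the log2(TPM + 1) scale). These are levels in bulk RNA, where fewer cells carrying a transcript and less of it per cell cannot be told apart.

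P2ry13 (gene 74191, chromosome 3, 59207892 to 59210882), a second ADP receptor next to P2ry12, was at 5.55, 2.51 and 4.85 TPM with stearic acid and at 10.0, 10.0 and 11.9 TPM with vehicle. The groups were again apart, with means of 4.31 ± 1.59 TPM and 10.6 ± 1.07 TPM (SD, n = 3 each; log2 difference -1.18, SE 0.29). P2ry14 (gene 140795, chromosome 3, 59114623 to 59153492), the UDP-glucose receptor, was at 14.6, 5.74 and 9.16 TPM with stearic acid and at 15.9, 15.6 and 18.7 TPM with vehicle. Its groups did not overlap, but stearic acid replicate 1 lay close to vehicle replicate 2. The means were 9.84 ± 4.47 TPM and 16.7 ± 1.70 TPM (SD, n = 3 each; log2 difference -0.79, SE 0.36). Without stearic acid replicate 2 the log2 difference of P2ry14 was -0.49, against -1.05 for P2ry12 and -0.91 for P2ry13. The P2ry12 to P2ry13 ratio was 1.58, 1.55 and 1.26 with stearic acid and 1.53, 1.66 and 1.43 with vehicle, so the ranges of this ratio overlapped. Med12l, whose body holds all 3 genes on the other strand, was at 0.242 ± 0.121 TPM with stearic acid and 0.460 ± 0.0889 TPM with vehicle (SD, n = 3 each). Whether reads were counted by strand is not given in the sources used here, so reads of Med12l and these receptors may not be separable. The same holds for the non-coding gene F630111L10Rik, which overlaps P2ry14, and for the non-coding gene Gm41846, which overlaps Entpd1 by 2215 bases. The microRNA gene Mir8115 overlaps P2rx7 by 119 bases on the same strand.

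**Figure D1:**
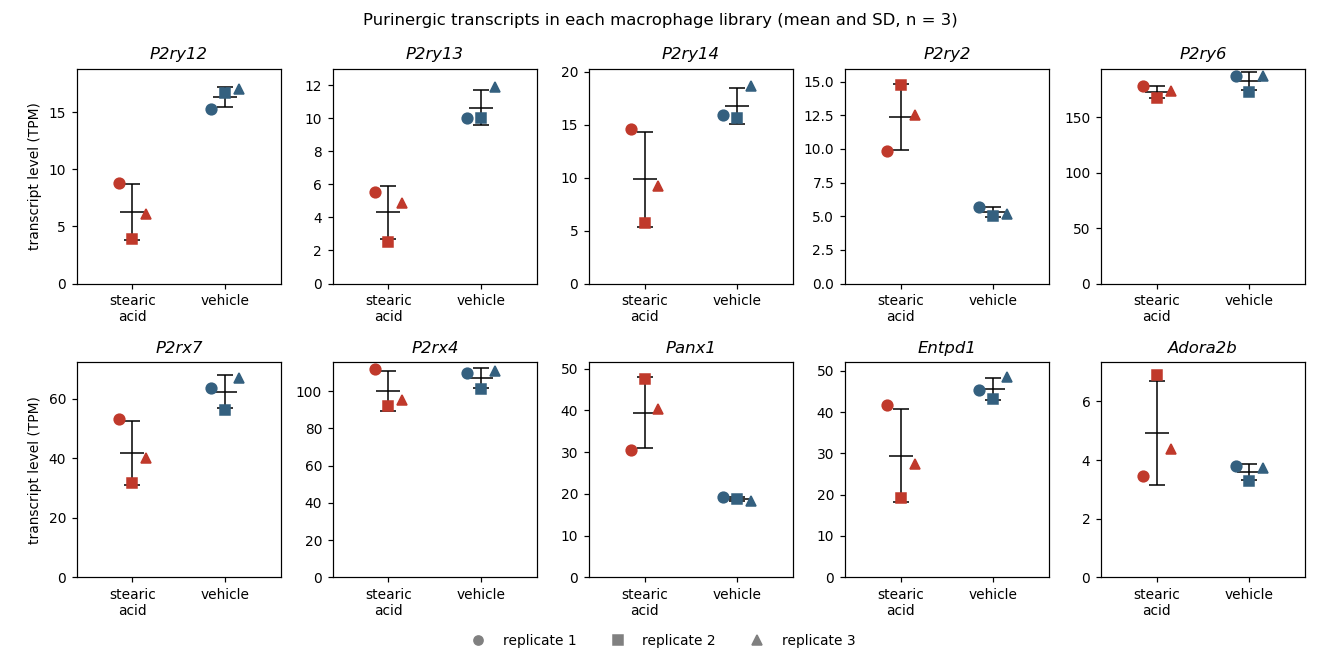
Transcript level (TPM, y axis from 0) of the 10 genes in each library, with stearic acid on the left and vehicle on the right of each panel. Symbols are replicates, and bars give the mean and SD of 3 libraries. P2ry12, for example, averaged 6.26 TPM with stearic acid and 16.3 TPM with vehicle, while P2ry6, P2rx4 and Adora2b overlap between the groups.

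The Gq-coupled receptors differed from each other. P2ry2 (gene 18442, chromosome 7, 100996568 to 101012053), which senses ATP and UTP released by dying cells and draws phagocytes to them, was at 9.84, 14.7 and 12.5 TPM with stearic acid and at 5.71, 5.04 and 5.19 TPM with vehicle. Every stearic acid library was above every vehicle library. The means were 12.3 ± 2.44 TPM and 5.31 ± 0.356 TPM (SD, n = 3 each), a 2.32-fold level with stearic acid (log2 difference 1.07, SE 0.16). Its neighbour P2ry6 (gene 233571, chromosome 7, 100937630 to 100975498), the UDP receptor, was the most abundant of the 10 genes in both groups. It was at 178, 167 and 173 TPM with stearic acid and at 188, 173 and 188 TPM with vehicle, and the groups overlapped (log2 difference -0.08, SE 0.05). P2ry2 came to 5.53%, 8.79% and 7.21% of the P2ry6 level in the stearic acid libraries and to 3.04%, 2.91% and 2.77% in the vehicle libraries. P2ry1, P2ry2, P2ry4 and P2ry6 together held 194, 188 and 192 TPM with stearic acid and 199, 183 and 198 TPM with vehicle, which overlap. P2ry6 made up most of this sum, so the overlap mainly restates that of P2ry6 and does not show the higher P2ry2. P2ry12, P2ry13 and P2ry14 together held 28.9, 12.1 and 20.1 TPM with stearic acid and 41.2, 42.3 and 47.6 TPM with vehicle, without overlap. These genes were picked on this contrast, so their sum carries no further weight.

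The ATP-gated channels were P2rx7 and P2rx4, since P2rx1, P2rx2, P2rx3, P2rx5 and P2rx6 stayed under the filter. P2rx7 (gene 18439, chromosome 5, 122643927 to 122692336), the low-affinity ATP channel upstream of NLRP3, was at 53.1, 31.6 and 40.2 TPM with stearic acid and at 63.5, 56.2 and 67.0 TPM with vehicle. The groups did not overlap, with stearic acid replicate 1 nearest to vehicle. The means were 41.6 ± 10.8 TPM and 62.3 ± 5.51 TPM (SD, n = 3 each; log2 difference -0.60, SE 0.22). P2rx4 (gene 18438, chromosome 5, 122707518 to 122729739), a more sensitive ATP channel found largely in lysosomes, was at 112, 92.2 and 95.3 TPM with stearic acid and at 110, 101 and 111 TPM with vehicle. Stearic acid replicate 1 was the highest of all 6 libraries and the groups overlapped (log2 difference -0.10, SE 0.10). Leaving out stearic acid replicate 1 made this difference -0.19, and leaving out replicate 2 made it -0.05. Within each library the ratio of P2rx7 to P2rx4 was 0.473, 0.343 and 0.422 with stearic acid and 0.578, 0.557 and 0.605 with vehicle, without overlap. Both genes were picked on this contrast, so the ratio largely restates the lower P2rx7 and carries no further weight. The body of P2rx4 overlaps that of Camkk2 on the other strand by 11360 bases, and Camkk2 averaged 35.7 ± 2.60 TPM with stearic acid and 39.9 ± 3.73 TPM with vehicle (SD, n = 3 each).

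**Figure D2:**
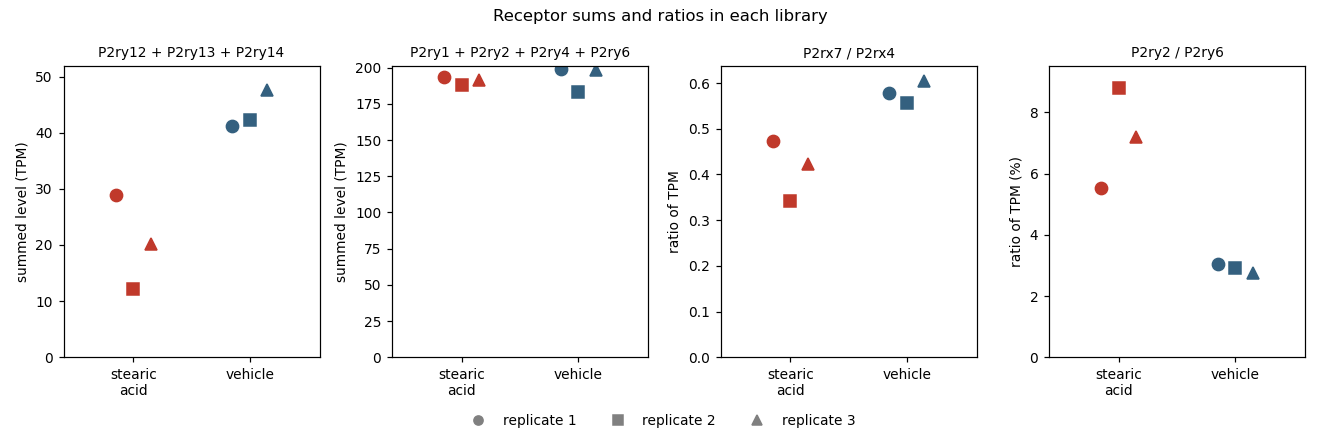
Summed TPM of the Gi-coupled P2Y genes and of the Gq-coupled P2Y genes, and the ratios P2rx7 / P2rx4 and P2ry2 / P2ry6 (%), for each library, with stearic acid on the left and vehicle on the right. Symbols are replicates. The Gq sums, mostly P2ry6, overlap between groups (188 to 194 TPM with stearic acid, 183 to 199 TPM with vehicle). The other 3 quantities do not, but they contain genes picked on this contrast.

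On the side of ATP release and breakdown, the release channel was higher and the degrading enzyme lower with stearic acid. Panx1 (gene 55991, chromosome 9, 15005785 to 15045478), the channel that caspases open in dying cells, was at 30.6, 47.5 and 40.3 TPM with stearic acid and at 19.4, 18.8 and 18.4 TPM with vehicle. Every stearic acid library was above every vehicle library, and the vehicle libraries lay close together. The means were 39.5 ± 8.50 TPM and 18.8 ± 0.486 TPM (SD, n = 3 each), a 2.10-fold level with stearic acid (log2 difference 1.01, SE 0.18). Entpd1 (gene 12495, chromosome 19, 40612366 to 40741602), which encodes CD39, was at 41.8, 19.3 and 27.4 TPM with stearic acid and at 45.4, 43.2 and 48.5 TPM with vehicle. Its groups did not overlap, although stearic acid replicate 1 stood close to vehicle replicate 2. The means were 29.5 ± 11.4 TPM and 45.7 ± 2.65 TPM (SD, n = 3 each; log2 difference -0.68, SE 0.31, and -0.42 without stearic acid replicate 2). The ratio of Panx1 to Entpd1 was 0.732, 2.46 and 1.47 with stearic acid and 0.426, 0.435 and 0.379 with vehicle.

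Adora2b (gene 11541, chromosome 11, 62248984 to 62266452), the low-affinity adenosine receptor coupled to cyclic AMP, was the least abundant of the 10 genes with vehicle. It was at 3.46, 6.89 and 4.38 TPM with stearic acid and at 3.79, 3.29 and 3.72 TPM with vehicle. Stearic acid replicate 1 lay within the vehicle values and replicate 2 well above them. The means were 4.91 ± 1.77 TPM and 3.60 ± 0.269 TPM (SD, n = 3 each). The log2 difference was 0.32 (SE 0.25), and leaving out stearic acid replicate 2 or 1 made it 0.09 or 0.50. At 71.0 to 190 reads per kilobase this gene also had among the fewest reads of the 10.

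Of the 10 genes, 5 were lower without overlap of the groups (P2ry12, P2ry13, P2ry14, P2rx7 and Entpd1), 2 were higher without overlap (P2ry2 and Panx1) and 3 overlapped. Among all 11551 genes past the filter, 44.6% did not overlap, 21.7% with stearic acid lower and 22.8% with stearic acid higher; the 10 were picked on this contrast, so their count carries no further weight. The 3 stearic acid libraries did not respond alike. In each of the 10 genes the distance from the vehicle mean was largest in replicate 2 and smallest in replicate 1, an order that 56.3% of all genes past the filter shared. Over the genes that passed the test across the whole table, the median absolute log2 change was 0.285, 0.601 and 0.425 in stearic acid replicates 1, 2 and 3. The coefficients of variation of P2ry12, P2ry13, P2ry14, Entpd1 and Adora2b were 36.1% to 45.4% with stearic acid and 5.51% to 10.1% with vehicle. Those of P2ry2, Panx1, P2rx7 and P2rx4 were 10.7% to 26.0% with stearic acid and 2.58% to 8.85% with vehicle. P2ry6 went the other way, at 3.08% with stearic acid and 4.57% with vehicle.

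**Figure D3:**
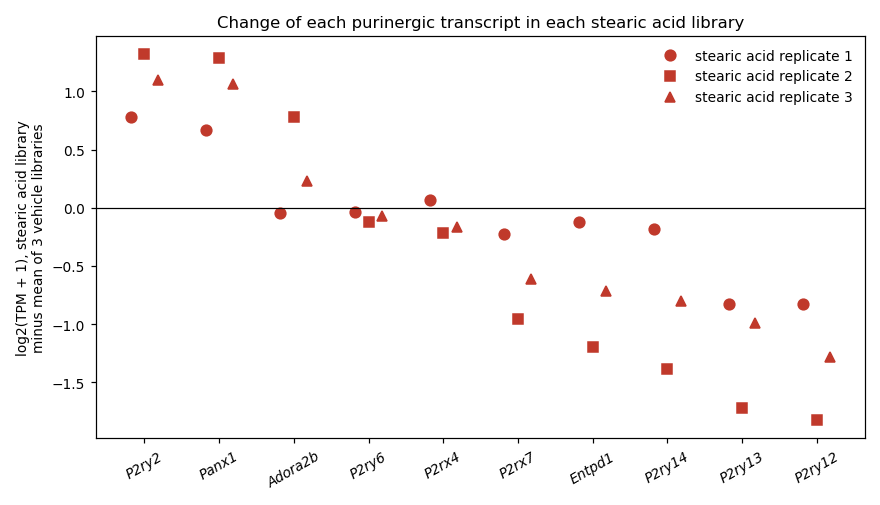
Difference on the log2(TPM + 1) scale between each stearic acid library and the mean of the 3 vehicle libraries (y axis) for the 10 genes, ordered by their mean difference. Symbols are the 3 stearic acid replicates; replicate 2 lies farthest from 0 and replicate 1 nearest to 0 in each gene, from 1.32 for P2ry2 to -1.82 for P2ry12 in replicate 2.

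The order of the levels shifted among the less abundant genes. With stearic acid the order was P2ry6, P2rx4, P2rx7, Panx1, Entpd1, P2ry2, P2ry14, P2ry12, Adora2b and P2ry13. Neighbours in it overlapped in range apart from P2ry6 above P2rx4, P2rx4 above P2rx7 and Entpd1 above P2ry2. With vehicle the order was P2ry6, P2rx4, P2rx7, Entpd1, Panx1, P2ry14, P2ry12, P2ry13, P2ry2 and Adora2b, and the ranges of neighbours overlapped for Panx1 with P2ry14 and for P2ry14 with P2ry12.

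Genes with the most similar course over the 6 libraries were found among 9557 other genes averaging 5 TPM or more, by the root mean square difference of centred log2(TPM + 1) values. For P2ry2 they were P4ha2 (0.0569) and Txnrd1 (0.0583), and the same genes were nearest to Panx1 (0.0441 for P4ha2 and 0.0428 for Txnrd1). P4ha2 is a collagen prolyl hydroxylase and Txnrd1 a thioredoxin reductase. P2ry12 lay nearest to Ms4a4c (0.0645), a membrane protein, and to AW112010 (0.0667). P2ry13 lay nearest to Pydc4 (0.0726) and to Gbp5 (0.0925), a guanylate-binding protein, and P2ry14 to Ccng2 (0.0531), a cyclin, and Rnf150 (0.0580). For P2rx7 they were the receptor phosphatase Ptpro (0.0185) and the lysophosphatidic acid receptor Lpar6 (0.0253). Entpd1 followed Tlr8 (0.0181), an endosomal RNA receptor, which was at 121, 57.8 and 82.6 TPM with stearic acid and at 132, 128 and 145 TPM with vehicle, and next Crebrf (0.0429). Adora2b lay nearest to Rrp1b (0.0915) and Mir17hg (0.0957), P2rx4 to Lysmd1 (0.0117) and Ogfr (0.0162), and P2ry6 to Gpd1l (0.00611) and Mfsd14b (0.00892). These distances describe 6 libraries that share the treatment contrast.

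Other genes of nucleotide signalling, 89 names in 9 lists, were tested with limma over the whole table. Of these names 83 were in the tables and 55 reached the filter, of which 8 rose, 6 fell and 41 did not pass (limma, Benjamini-Hochberg adjusted p under 0.05). Over all 11551 genes tested, 24.7% passed, 12.8% as higher and 11.9% as lower. The median log2 fold change was -0.07 over the 55 genes and -0.03 over all genes tested. The rises numbered 9, 4 and 3 without stearic acid replicates 1, 2 and 3 and 4, 3 and 3 without vehicle replicates 1, 2 and 3. The falls numbered 13, 6 and 4 without stearic acid replicates 1, 2 and 3 and 2, 2 and 1 without vehicle replicates 1, 2 and 3.

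Among the other receptors, P2ry1, an ADP receptor coupled to Gq, was at 5.87, 6.02 and 5.74 TPM with stearic acid and at 5.51, 5.04 and 5.38 TPM with vehicle and missed the threshold (log2 fold change 0.12, SE 0.08, limma adjusted p = 0.27). Adora3, an adenosine receptor coupled to Gi, averaged 1.75 TPM with stearic acid and 2.06 TPM with vehicle and did not pass either (limma adjusted p = 0.27). P2ry4, Adora1 and Adora2a were under the filter. The ectoenzyme Enpp1, which cuts ATP to AMP and pyrophosphate, was at 4.76, 3.89 and 4.21 TPM with stearic acid and at 6.17, 6.12 and 6.08 TPM with vehicle. It fell (log2 -0.43, SE 0.09, limma adjusted p = 0.013), a call lost without stearic acid replicate 3 or without any 1 vehicle library (limma adjusted p up to 0.057). Nt5e, which encodes CD73, stayed under 1 TPM in all 6 libraries, and the 4 tested intracellular relatives of CD39 (Entpd4, Entpd5, Entpd6 and Entpd7) did not pass.

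Genes of nucleotide release gave 3 rises and 1 fall among 9 tested. Slc17a9, the vesicular nucleotide transporter, averaged 9.40 ± 1.47 TPM with stearic acid and 6.38 ± 0.906 TPM with vehicle (SD, n = 3 each; log2 0.49, SE 0.13, limma adjusted p = 0.024). Lrrc8d, a subunit of the volume-regulated anion channel, rose by log2 0.37 (SE 0.10, limma adjusted p = 0.030), while its partner Lrrc8a did not pass (log2 0.13, limma adjusted p = 0.38). Ank, which exports ATP and pyrophosphate, averaged 137 ± 13.9 TPM with stearic acid and 110 ± 8.42 TPM with vehicle (SD, n = 3 each; log2 0.31, limma adjusted p = 0.037). Fam26f, the calcium homeostasis modulator also called Calhm6, was at 6.99, 2.28 and 3.44 TPM with stearic acid and at 8.46, 7.55 and 7.83 TPM with vehicle and fell (log2 -0.87, SE 0.26, limma adjusted p = 0.042). None of these 4 calls held without stearic acid replicate 3, vehicle replicate 2 or vehicle replicate 3 (limma adjusted p of 0.066 to 0.13). Lrrc8d, Ank and Fam26f also failed without vehicle replicate 1, and Lrrc8d and Ank without stearic acid replicate 2 (up to 0.11).

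Of 9 tested genes of adenosine handling, 1 rose and 2 fell. Pnp, the phosphorylase that cleaves inosine and guanosine, was at 230, 184 and 213 TPM with stearic acid and at 297, 326 and 316 TPM with vehicle (log2 -0.58, SE 0.09, limma adjusted p = 0.0045), and the call held in each fit that left out 1 library. Its close copy Pnp2 averaged 9.74 ± 3.14 TPM with stearic acid and 17.8 ± 0.957 TPM with vehicle (SD, n = 3 each; log2 -0.86, limma adjusted p = 0.017). Reads of these copies may be shared, and Pnp2 did not pass without any 1 vehicle library (up to 0.072). Slc29a2, an equilibrative nucleoside transporter, rose (log2 0.44, SE 0.13, limma adjusted p = 0.040), which held without stearic acid replicate 1 and in no other fit that left out 1 library (limma adjusted p up to 0.13). Its more abundant relative Slc29a1 was at 103 TPM with stearic acid and 114 TPM with vehicle and did not pass (limma adjusted p = 0.17), nor did Ada and Adk, which deaminate and phosphorylate adenosine (limma adjusted p = 0.26 and 0.17).

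Most signalling partners of the receptors did not pass: 2 of 16 G protein and effector genes rose and 1 fell. Rgs1, which switches off Gi and Gq signals, was at 146, 273 and 205 TPM with stearic acid and at 83.2, 79.4 and 67.8 TPM with vehicle. Its rise (log2 1.38, SE 0.19, limma adjusted p = 0.0032) was the largest change among the 55 genes and held in each fit that left out 1 library. The subunits of the phosphoinositide 3-kinase that G protein βγ dimers activate went opposite ways. The catalytic subunit gene Pik3cg fell (log2 -0.48, SE 0.10, limma adjusted p = 0.015) and failed without vehicle replicate 2 or 3 (up to 0.072). The adaptor gene Pik3r5 rose (log2 0.27, SE 0.08, limma adjusted p = 0.043) and failed in each fit that left out 1 library other than stearic acid replicate 1 (up to 0.12). The G protein genes Gnaq, Gna11, Gna15, Gnai2, Gnai3 and Gnas did not pass.

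Of 13 tested genes listed as downstream of P2X7, 2 rose and 1 fell. Some of them also act outside P2X7 signalling, and whether P2X7 had a part in their changes was not tested. Ninj1, which ruptures the plasma membrane at the end of lytic cell death, was at 329, 396 and 327 TPM with stearic acid and at 212, 185 and 186 TPM with vehicle (log2 0.84, SE 0.09, limma adjusted p = 0.0012). Kcnk13, a potassium channel that acts with P2Y12 in microglia, was at 58.5, 69.3 and 60.7 TPM with stearic acid and at 46.4, 42.1 and 44.3 TPM with vehicle (log2 0.49, SE 0.08, limma adjusted p = 0.0062). Both rises held in each fit that left out 1 library. The potassium channel Kcnk6, required for P2X7-driven NLRP3 activation in mouse macrophages, missed the threshold (log2 0.05, SE 0.08, limma adjusted p = 0.65). Ano6, a lipid scramblase that P2X7 engages, missed it too (limma adjusted p = 0.997). The gene that fell was Nlrp3, the inflammasome sensor, at 49.9, 45.1 and 49.3 TPM with stearic acid and at 67.6, 57.9 and 67.9 TPM with vehicle (log2 -0.41, SE 0.08, limma adjusted p = 0.013), whose call was lost without vehicle replicate 1 or 3 (up to 0.064).

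**Figure D4:**
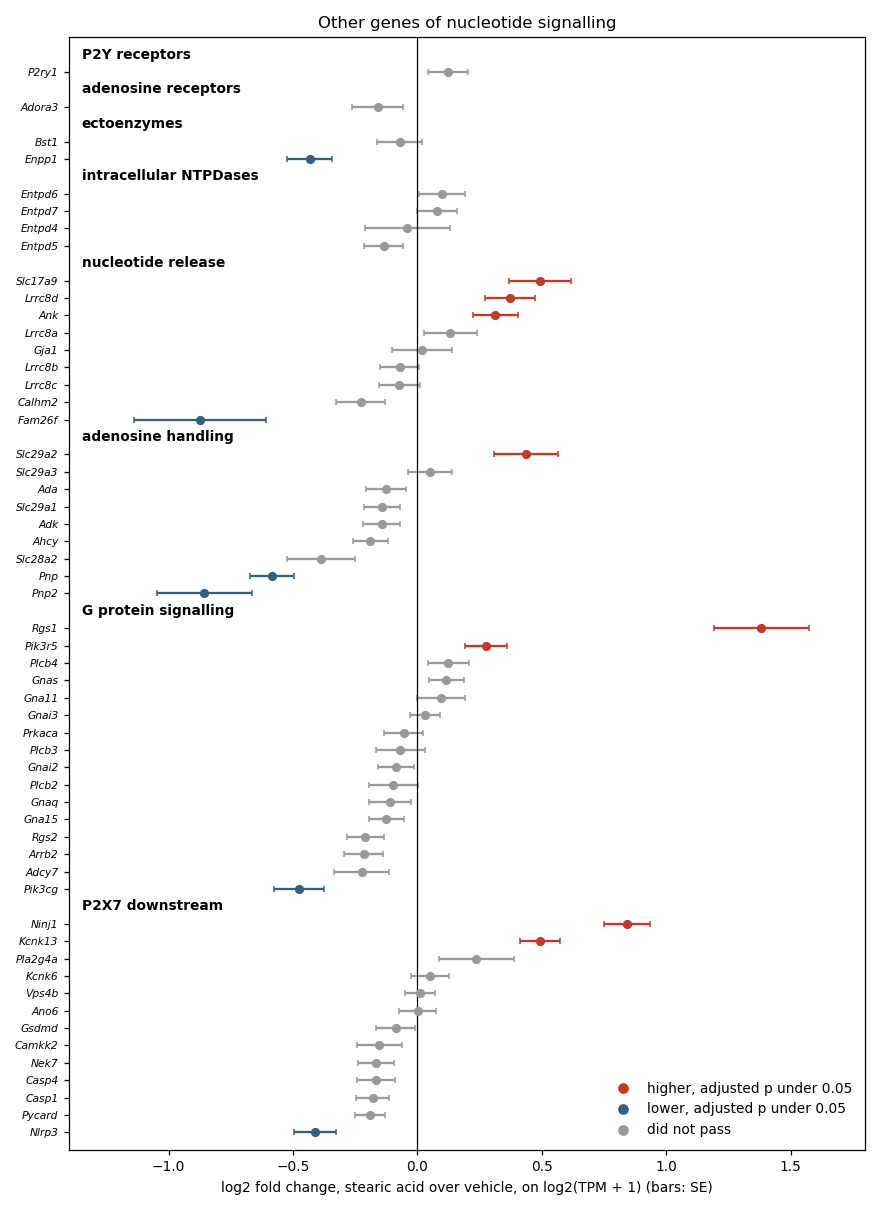
Log2 fold change of stearic acid over vehicle on log2(TPM + 1), with SE bars from limma, for the 55 tested genes of nucleotide signalling other than the 10, grouped by role. Red points rose, blue points fell and grey points did not pass; Rgs1 (1.38) and Ninj1 (0.84) lie farthest right and Fam26f (-0.87) and Pnp2 (-0.86) farthest left.

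Neighbours of the 10 genes were compared with them, taking the protein-coding genes within 200 kb in RefSeq. Of 32 such genes 21 reached the filter, and 2 rose, 1 fell and 18 did not pass (median log2 fold change -0.16, against -0.03 over all genes tested). Over all genes tested, 24.7% passed, 12.8% as higher and 11.9% as lower. Aldh18a1, which makes a precursor of proline and starts 23903 bases from Entpd1 on the other strand, was at 26.4, 44.0 and 35.2 TPM with stearic acid and at 22.7, 20.8 and 20.9 TPM with vehicle (log2 0.66, SE 0.15, limma adjusted p = 0.019), whereas Entpd1 was lower. Tctn3, whose start lies 42 bases from that of Entpd1 on the other strand, averaged 15.8 ± 3.04 TPM with stearic acid and 20.0 ± 2.22 TPM with vehicle and did not pass (SD, n = 3 each; limma adjusted p = 0.10). Near P2rx7, the calcium pump gene Atp2a2 rose (log2 0.29, SE 0.09, limma adjusted p = 0.046), and near P2ry2 Fchsd2 fell (log2 -0.34, SE 0.11, limma adjusted p = 0.048). Aldh18a1 failed without stearic acid replicate 3, vehicle replicate 2 or vehicle replicate 3 (adjusted p in limma reached 0.083), and Atp2a2 and Fchsd2 in each fit that left out 1 library other than stearic acid replicate 1 (up to 0.16). Around P2ry12, P2ry13 and P2ry14, the neighbours Med12l, Gpr171 and Igsf10 stayed under the filter.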

How the data were processed

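Polyadenylated RNA of 3 stearic acid and 3 vehicle macrophage samples was sequenced from stranded Illumina TruSeq libraries, per the labels' protocols. Per the file headers, the authors deposited a TPM and an RPKM value for each gene and library. The submitters' processing notes name DRAGEN, without a version, and the builds GRCm38 and mm10, which are 1 assembly. Annotation, counting rule and use of strand: not given in the sources used here. TPM values are shares, so every change is relative to all other transcripts.

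Tables were joined by NCBI gene number, these numbers matched RefSeq (GRCm38.p6) for 97.3% of genes, and 27 names turned into dates were replaced. Strands came from GENCODE. The test was limma-trend (limma 3.58.1, R 4.3.3) on log2(TPM + 1), with treatment as the only term, over genes averaging 1 TPM or more, adjusted by Benjamini-Hochberg, threshold 0.05. It was checked on simulated data with 200 changed genes. SEs of the 10 genes come from the group SDs, others from limma. A mean ± SD is over 3 libraries. Read depth was estimated by a search for the depth at which the RPKM of low single-exon genes came closest to whole reads. Multiples of that depth fit as well, so the lowest was taken. Of these values 64.5% to 69.7% came out whole within 0.05, too few to rebuild counts.

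The 10 genes and all lists were chosen with earlier results of these data known. Genes named are the 10, up to 4 passing genes per list by smallest p, passing neighbours, and the 2 nearest profiles of each of the 10; others were named after their values were seen. Alternatives were other pseudocounts (0.1 and 0.5), filters, scaling, RPKM, a replicate block, and leaving out each library.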

Additional observations from a re-analysis of the deposited data

How the results depend on the processing

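Of the 17 nucleotide signalling and neighbouring genes that passed the test, Rgs1, Ninj1, Kcnk13 and Pnp passed under every alternative run. The other 13 lost the threshold in at least 1. None changed direction, although the filters and the replicate block cannot alter a log2 fold change. Single marker genes and genes that did not pass were not refitted one by one. Without the filter on low values, 1027 of all genes passed, and 4 nucleotide signalling genes rose and 2 fell. In that fit limma called 0 neighbours (11 at an unadjusted p under 0.05). It tested 21632 genes instead of 11551 and also estimated variances with the low genes included. How much each of these lowered the counts was not tested. Over the fits that left out 1 library, genes called ranged from 550 to 5010, rises of nucleotide signalling genes from 3 to 9, falls from 1 to 13 and called neighbours from 0 to 11 in limma; the fits with 0 had 4 to 11 at an unadjusted p under 0.05. Fam26f and Atp2a2 also lost the threshold with median-of-ratios scaling (limma adjusted p = 0.052 and 0.051). Same-numbered libraries deviated together at r of 0.07, 0.29 and 0.04 over genes, and the 0.29 of replicate 2 was the highest of any pairing. Stearic acid replicate 1 correlated best with vehicle replicate 3 (r = 0.27). With 3 libraries per group, each centred on its group mean, these values cannot decide whether the numbers mark pairs. The main fit did not take them as pairs. With the replicate block, 3638 genes passed against 2856, 8 nucleotide signalling genes rose, 9 fell and 7 neighbours passed. The 10 genes kept the sign of their difference with other pseudocounts, scaling, RPKM and without each library. The filters and the replicate block leave these differences the same by construction. The 10 were picked on this contrast, so a kept sign carries no further weight. The difference ranged from -1.55 to -1.05 for P2ry12, -1.36 to -0.91 for P2ry13, -1.09 to -0.49 for P2ry14, -0.96 to -0.42 for Entpd1, -0.78 to -0.42 for P2rx7, -0.19 to -0.05 for P2rx4, -0.12 to -0.03 for P2ry6, 0.09 to 0.50 for Adora2b, 0.87 to 1.17 for Panx1 and 0.92 to 1.21 for P2ry2. P2ry13 and Adora2b reached the fewest reads per kilobase in any library (69.3 and 71.0), and the part of depth in their spread was not tested.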
